A study of Mus musculus with 18 samples.

Results

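The genes described here encode the steps of mitochondrial fatty acid beta-oxidation and their close neighbours: activation and carnitine transport, the 4 reactions of the spiral, the helper enzymes for double bonds, electron transfer, ketone bodies and propionate. They were 32 genes, chosen by symbol (with Dci and Peci read as older names of Eci1 and Eci2) out of 31709 genes on the array, and were read by 40 of 39429 non-control probes. Liver RNA came from male C57BL/6J mice of 13 weeks, an inbred laboratory strain, that had eaten a high-fat diet for 5 weeks. Both diets gave 51.1% of energy as lipid. In the LIN diet, eaten by 8 mice, the fat was linseed oil with 66.7% polyunsaturated fatty acids (49.7% alpha-linolenic acid) and 9.7% saturated ones. In the PALM diet, eaten by 10 mice, it was palm oil with 8.8% polyunsaturated and 55.6% saturated fatty acids. Each liver sample was hybridised to its own 1-colour array, with no group on a low-fat diet among the samples used here.

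As background, a fatty acid is joined to coenzyme A at the outer mitochondrial membrane, handed to carnitine to cross the inner membrane, and handed back to coenzyme A inside. Each turn of the spiral then removes a pair of carbons as acetyl-CoA through oxidation, hydration, a second oxidation and thiolysis, and the liver turns surplus acetyl-CoA into ketone bodies for other organs. Double bonds at the positions found in polyunsaturated fatty acids stop the spiral unless enoyl-CoA isomerases and 2,4-dienoyl-CoA reductase move or remove them. In liver the nuclear receptor PPAR alpha, which binds fatty acids, is a known inducer of many of these genes.

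Values are log2 of the processed signal minus the array's 75th percentile, in log2 units, and a difference is the linseed mean minus the palm mean, ± its standard error (SE) from limma with 8 linseed and 10 palm arrays. A gene was called when its Benjamini-Hochberg p, adjusted over all genes tested, was under 0.05. The image software marks spots as non-uniform or as outliers among replicate spots, and most such marks fall on bright spots. Of the 32 genes, 18 were in the brightest decile of all genes, where a gene had a mark on a mean of 5.11 of 18 arrays; the members' own mean was 5.13. Counts over the members are therefore given with marked spots kept, where all 32 genes could be tested, and with marked spots left out, where 24 could. A gene's value is with marked spots kept unless the sentence says otherwise. In 11 genes the brightest probe had too few unmarked values, and for Cpt2, Etfa and Decr1 a dimmer probe stood in.

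On linseed oil 6 of the 32 genes rose and none fell with marked spots kept. They were Slc25a20 of the carnitine shuttle, Acadm, Hadhb and Hadh of the spiral, and Eci1 and Decr1 of the unsaturated fatty acid steps, at 1.25-fold to 1.37-fold the palm level. Over all 16544 genes tested, 0.683% were called higher and 0.218% lower. The median difference of the 32 genes was 0.25, against -0.0017 over all genes, and 28 of the 32 were above 0 where 49.4% of all genes were. At an unadjusted p under 0.05, 22 of the 32 were higher and none lower, beside 6.33% higher and 4.27% lower over all genes. With marked spots left out, 1 of 24 genes, Slc25a20, rose and none fell (0.57% and 0.188% of 15951 genes). Their median difference was 0.23, and 20 of the 24 were above 0, beside 48.7% of all genes. At an unadjusted p under 0.05, 14 of the 24 were higher and none lower, beside 6.01% and 4.15% of all genes. The 12 genes with no mark on any array had a median difference of 0.25. Of them 7 were higher at an unadjusted p under 0.05, and 1, Slc25a20, was called. On the 21 genes read by the same probe both ways, leaving out marked spots moved the difference by at most 0.07.

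**Figure D1:**
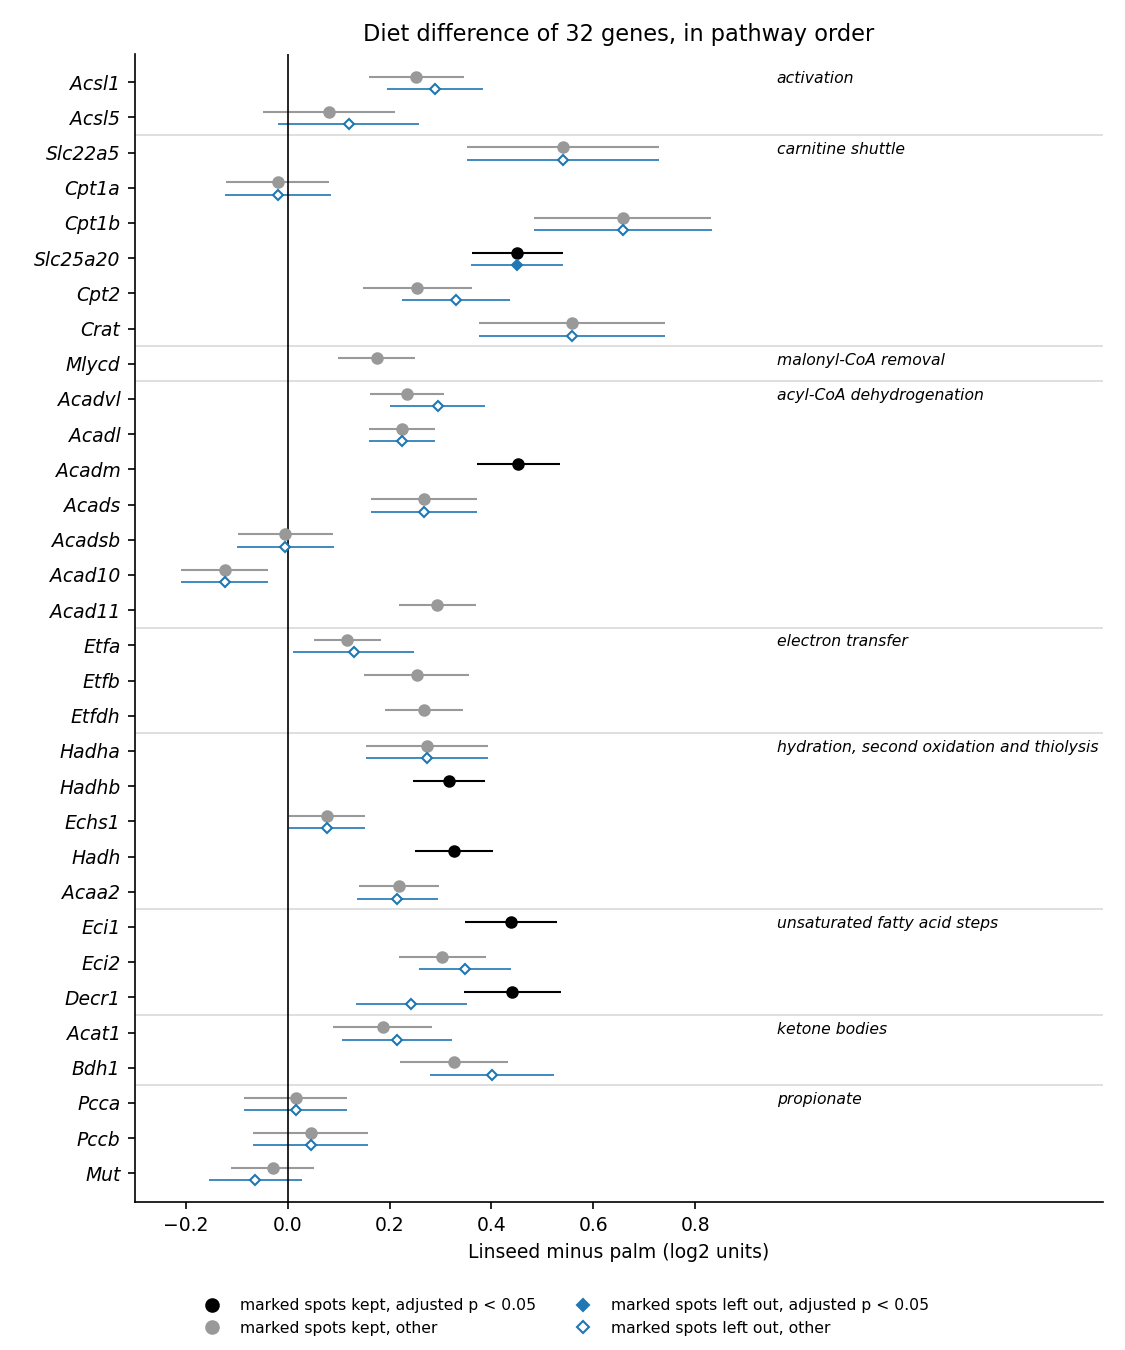
Linseed minus palm difference (log2 units, horizontal axis) of the 32 genes in pathway order, as points with bars of 1 SE from limma over 8 linseed and 10 palm arrays; circles are with marked spots kept and diamonds with marked spots left out. The differences lie between -0.12 (Acad10) and 0.66 (Cpt1b), 28 of 32 circles lie right of 0, and the 6 black circles are the called genes.

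The 6 calls depended on the settings to differing degrees, although the direction did not: each of the 6 differences was above 0 in all 31 other settings with marked spots kept. Acadm and Slc25a20 each passed in 27 of these settings, Eci1 in 20, Decr1 in 16, Hadhb in 13 and Hadh in 8. None of the 6 passed when each array was scaled by the percentile of its unmarked spots, or when the arrays of slides 4 and 5 were left out. Leaving out single arrays ended no call of Acadm or Slc25a20. Eci1 was not called without linseed replicate 3, 5 or 7 or palm replicate 1 or 5 (differences of 0.40 to 0.43), and Decr1 without linseed replicate 2, 3, 4, 5 or 7 or palm replicate 1, 5, 6 or 9 (0.39 to 0.45). Hadhb was not called without linseed replicate 1, 3, 4, 5 or 7 or palm replicate 1, 3, 5, 6, 7 or 10 (0.29 to 0.32). The call of Hadh was lost without any single array other than linseed replicate 4 or palm replicate 7 (0.28 to 0.34). The number of called members fell to 2 without linseed replicate 3, 5 or 7 or palm replicate 1 or 5, and to 3 without palm replicate 6.

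Between 17258 and 22445 probes per array were well above background, between 238 and 1703 spots were marked, and the arrays lay on 5 slides that each held both diets. Slides 1, 2 and 4 held 2 arrays of each diet, and slides 3 and 5 held 1 linseed and 2 palm arrays. Marks went with the slide: 238 to 424 spots were marked per array on slides 1 and 2, and 556 to 682 on slide 3. On slides 4 and 5 they were 1283 to 1703, so leaving out marked spots removed more values from these slides. Deviations from the diet means were more alike between arrays of different diets on 1 slide (mean correlation 0.31 across genes) than on different slides (-0.08). All 6 hepatocyte markers were well above background on at least 8 arrays. Their summed level was 1025 to 1686 times the array percentile (median 1341) in the linseed group. In the palm group it was 1077 to 1431 (median 1220). With marked spots kept, 5 of the 6 had a difference above 0 and none was called, with a median difference of 0.11. The summed level of 5 adipocyte markers was 1.88 to 36.1 (median 7.34) in the linseed group and 0.225 to 10.2 (median 0.872) in the palm group. Cfd made most of it: Adipoq was above background on 3 linseed arrays and 1 palm array, Plin1 on 2 and 1, Retn on 3 and 1, and Lep on none. Of 5 skeletal muscle markers, Mylpf was above background on no array, and the summed level was 87.2 on linseed replicate 6, at most 1.99 on the other linseed arrays and at most 2.43 on the palm arrays. The part of adipocyte and muscle RNA in the results was not tested. With marked spots kept, 5 members were called without linseed replicate 6, and 2 to 5 when each array in turn was left out. In bulk tissue, fewer cells of a type and less RNA per cell cannot be told apart.

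The sequences below are what the array read for 2 called genes, the carrier at the entry and an isomerase for double bonds. The probes of Slc25a20 (mm9, chr9:108585399-108585458, plus strand) and of Eci1 (mm9, chr17:24574515-24575912, plus strand, across a splice junction) are written 5′ to 3′.
Slc25a20: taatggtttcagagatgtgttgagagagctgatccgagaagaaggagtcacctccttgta
Eci1: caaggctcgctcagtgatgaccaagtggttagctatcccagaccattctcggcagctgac

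The promoters were searched because PPAR alpha binds DNA with its partner RXR at AGGTCA half-sites in direct repeat. RefSeq windows of GRCm38.p6, from 250 bases before to 50 after a gene's start, were matched for 26 of the 32 genes. The half-site AGGTCA, on either strand, was in a window of 5 of the 26 genes (19.2%), Acadm, Acadvl, Cpt1a, Echs1 and Pcca. It was in 16.3% of all 32851 windows. That share is per window and the first is per gene, and the 26 genes had 29 windows. The direct repeat AGGTCANAGGTCA, each match of which also counts as a half-site, was in no member's window and in 13 windows overall (0.0396%). The stretches before the start sites are given on the gene's own strand, with the half-site or its reverse complement in capitals, at GRCm38.p6 positions chr3:153944863-153944893 (Acadm), chr11:70015486-70015539 (Acadvl), chr19:3323183-3323236 (Cpt1a), chr7:140116475-140116528 (Echs1) and chr14:122484144-122484197 (Pcca).
Acadm: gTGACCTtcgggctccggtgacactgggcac
Acadvl: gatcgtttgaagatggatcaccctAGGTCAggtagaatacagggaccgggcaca
Cpt1a: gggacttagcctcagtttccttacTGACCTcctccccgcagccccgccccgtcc
Echs1: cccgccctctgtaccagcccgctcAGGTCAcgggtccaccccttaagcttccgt
Pcca: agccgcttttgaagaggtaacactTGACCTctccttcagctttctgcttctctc
Of these 5 genes, Acadm was called and the other 4 were not, with Cpt1a and Pcca near 0. The member windows had a median GC content of 61.3% and a median of 17 CpG dinucleotides, against 52.7% and 7 over all windows.

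Activation is the step of the long-chain acyl-CoA synthetases. Neither measured member passed. Acsl1, the main synthetase of liver, had a difference of 0.25 ± 0.09 (adjusted p = 0.307), and 0.29 ± 0.09 with marked spots left out (adjusted p = 0.241). The 8 linseed values of Acsl1 ran from 6.71 to 7.14 (median 7.01) and the 10 palm values from 6.44 to 7.10 (median 6.77), so the groups overlapped. Its second probe gave 0.41 ± 0.15, and 0.49 ± 0.15 with marked spots left out. The mean of its probes gave 0.04 with marked spots left out, but this mean did not compare like with like. On palm replicates 7 and 8 only the brighter probe was unmarked, so their means were set at its higher level. Acsl5, a synthetase of the mitochondrial membrane and endoplasmic reticulum, had a difference of 0.08 ± 0.13, and of 0.12 ± 0.14 with marked spots left out.

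The carnitine shuttle held 1 called gene of 6, and 5 of the 6 were higher at an unadjusted p under 0.05. Slc25a20, the carnitine-acylcarnitine carrier of the inner membrane, ran from 1.51 to 2.09 (median 1.84) on linseed oil and from 1.03 to 1.66 (median 1.37) on palm oil. All 8 linseed values lay above the palm median and 5 above the highest palm value. It was 1.37-fold higher (0.45 ± 0.09; adjusted p = 0.021 with marked spots kept and 0.025 left out), and none of its spots was marked. With slide as a fixed block the difference was 0.45 (adjusted p = 0.032 with marked spots kept; 0.007 to 0.277 over the other settings). Within slides it was 0.55, 0.41, 0.81, 0.39 and 0.09, above 0 on all 5. With marked spots left out, its call was lost without linseed replicate 3, 5 or 7 (0.41 to 0.44).

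Cpt1a, the liver form of the outer-membrane transferase and the step that malonyl-CoA inhibits, had a difference near 0. Its 10 spots gave 4.44 to 5.32 (median 5.06) on linseed oil and 4.78 to 5.25 (median 5.11) on palm oil, and the difference was -0.02 ± 0.10, with a 95% confidence interval of -0.23 to 0.19. The sign turned to positive with slide as a fixed block (0.01), and a second probe gave 0.11 ± 0.09. The lowest linseed value, of replicate 2, stood apart from the other 7, which began at 4.99. The difference between the changes of Cpt1a and of Slc25a20 was not itself tested.

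Cpt1b is the form of the same transferase found mainly in muscle and brown fat. Its values were low but above background on all 18 arrays, from -3.47 to -1.84 (median -2.63) on linseed oil and from -3.68 to -2.94 (median -3.30) on palm oil. The difference of 0.66 ± 0.17 was the widest of the 32 and did not pass (adjusted p = 0.089 with marked spots kept, 0.097 left out); without linseed replicate 2 it was 0.77 and passed (adjusted p = 0.033; 0.033 to 0.999 over its alternatives with marked spots kept). Its size depended on the processing of dim signals: it was 0.14 with normexp background correction and 0.37 on the authors' values. A second probe gave 0.80 ± 0.29. The highest value, -1.84, was on linseed replicate 6, the array with the muscle marker sum of 87.2, and without that array the difference was 0.54 (adjusted p = 0.132). The 4 linseed arrays with the highest adipocyte sums (replicates 1, 3, 5 and 6) had Cpt1b values of -2.61, -2.25, -3.05 and -1.84. The summed level of 5 brown adipocyte markers was 6.29 to 20.3 (median 8.64) in the linseed group and 5.19 to 12.0 (median 8.00) in the palm group. It was highest on linseed replicate 3, which had the second highest Cpt1b value. On linseed replicate 6, which had the highest Cpt1b value, it was the lowest of the linseed group (6.29). Linseed replicates 5, 1 and 2, with the next highest brown adipocyte sums of that group (13.1, 10.4 and 9.91), had Cpt1b values of -3.05, -2.61 and -3.47. Of these markers, Ppargc1a and Elovl3 were above background on all 18 arrays, Cidea on 4 linseed and 5 palm arrays, Ucp1 on 3 and 1, and Dio2 on none. The part of other tissues in its difference was not tested. Both probes also list the transcript of Gm44502, so its signal and that of Cpt1b cannot be told apart.

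**Figure D2:**
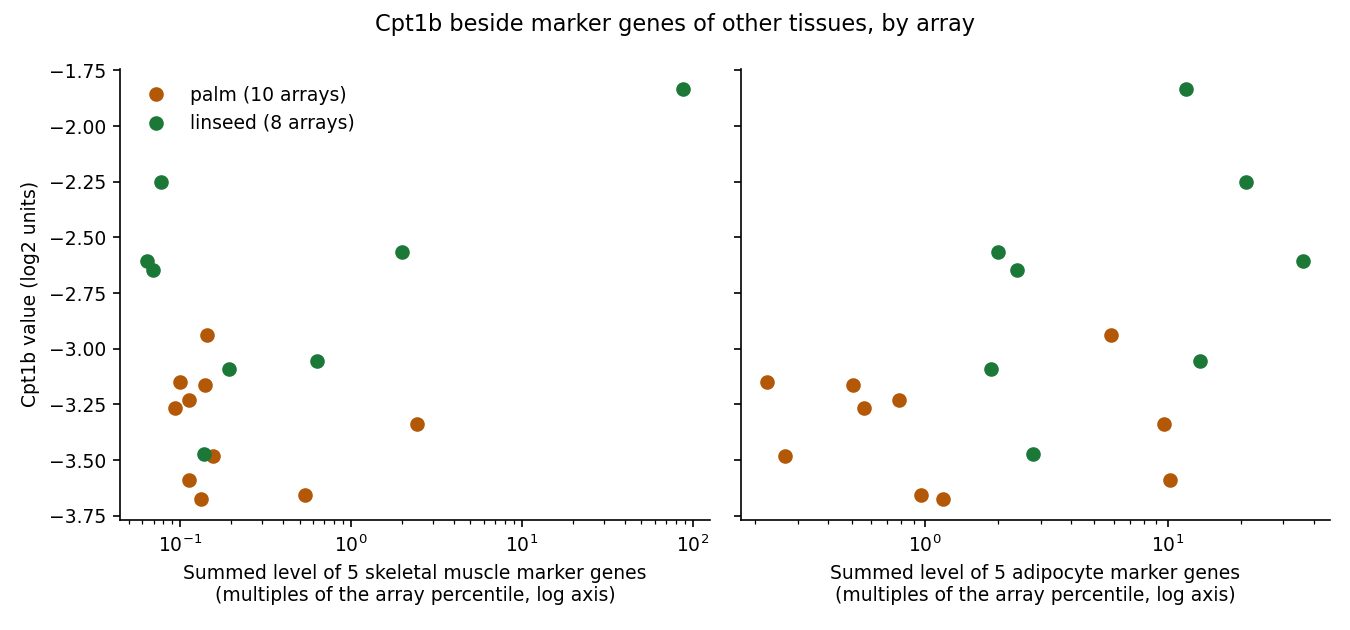
Cpt1b value (log2 units, vertical axis) of each array against the summed level of 5 skeletal muscle markers (left) and 5 adipocyte markers (right), both on log axes in multiples of the array's 75th percentile; each point is 1 array, 8 linseed and 10 palm. The linseed array at the far right of the muscle panel (87.2) has the highest Cpt1b value, -1.84, and the adipocyte sums reach 36.1 in the linseed and 10.2 in the palm group.

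The other shuttle genes had positive differences that did not pass. Slc22a5, the carnitine transporter OCTN2 of the cell membrane, differed by 0.54 ± 0.19 (adjusted p = 0.262), with all 8 linseed values above the palm median. Crat, which moves acetyl groups onto carnitine, differed by 0.56 ± 0.18 (adjusted p = 0.220), but by 0.20 with normexp background correction and 0.23 on the authors' values. Both were unmarked on every array and above 0 within all 5 slides (0.16 to 1.01 for Slc22a5, 0.19 to 0.92 for Crat). Cpt2, the inner transferase that returns the acyl group to coenzyme A, differed by 0.25 ± 0.11 on its bright probe (adjusted p = 0.396) and by 0.33 ± 0.11 on a dimmer, unmarked one (adjusted p = 0.228). Mlycd, which destroys malonyl-CoA and so lifts the block on Cpt1a, could be tested only with marked spots kept and differed by 0.17 ± 0.08 (adjusted p = 0.411).

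Of the 7 acyl-CoA dehydrogenases, which take the first pair of hydrogens from the chain, 1 was called and 5 were above 0. Acadm, the medium-chain dehydrogenase, had the smallest adjusted p of all 32 genes. It ran from 5.32 to 5.77 (median 5.54) on linseed oil and from 4.92 to 5.38 (median 5.04) on palm oil, so that 7 of 8 linseed values exceeded every palm value. It was 1.37-fold higher (0.45 ± 0.08, adjusted p = 0.0096; 0.0052 to 0.224 over the other settings) and above 0 within all 5 slides (0.19 to 0.73). Spots of Acadm were marked on 6 linseed and 6 palm arrays, so it could not be tested with marked spots left out. Among the settings that ended its call was the authors' value table, with a difference of 0.43.

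The other straight-chain dehydrogenases had smaller differences, and none passed. Acadvl, for very long chains, differed by 0.23 ± 0.07 (adjusted p = 0.188; 0.29 ± 0.09 and 0.262 with marked spots left out), Acadl, for long chains, by 0.22 ± 0.06 (adjusted p = 0.135), and Acads, for short chains, by 0.27 ± 0.10 (adjusted p = 0.333). For Acadl all 8 linseed values (2.92 to 3.30) lay above the palm median of 2.88, although the palm values reached 3.03. Acad11, which is active on long chains, differed by 0.29 ± 0.08 (adjusted p = 0.081) with marks on 17 of 18 arrays, and passed when slide was a random block (0.30, adjusted p = 0.039; 0.039 to 0.765 over its alternatives). Acadsb, which acts on branched short chains from isoleucine, was at 0.00 ± 0.09 (95% confidence interval -0.20 to 0.19). Acad10, a less studied member of the family, was at -0.12 ± 0.09 (adjusted p = 0.655) and was below 0 in every other setting.

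The electron carriers that pass those hydrogens to the respiratory chain were above 0 and none passed. Etfa and Etfb, the subunits of the electron transfer flavoprotein, differed by 0.12 ± 0.07 (adjusted p = 0.565) and 0.25 ± 0.10 (adjusted p = 0.367). Etfdh, the oxidoreductase that hands the electrons to ubiquinone, differed by 0.27 ± 0.08 (adjusted p = 0.135), with all 8 linseed values (5.06 to 5.54) above the palm median of 4.98. With marked spots left out, Etfb and Etfdh had too few values for the stated filter. Etfa was then at 0.13 ± 0.12 on its dimmer probe (adjusted p = 0.783). That Etfa probe and the Etfb probe each list further predicted transcripts.

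Hydration, the second oxidation and thiolysis held 2 called genes of 5. Hadhb, the thiolase subunit of the mitochondrial trifunctional protein, ran from 5.21 to 5.68 (median 5.48) on linseed oil and from 4.91 to 5.32 (median 5.16) on palm oil, with 7 of 8 linseed values above every palm value. It was 1.25-fold higher (0.32 ± 0.07, adjusted p = 0.036; 0.016 to 0.457 over the other settings). Within slides it was 0.28, 0.36, 0.56 and 0.34 on slides 1 to 4 and -0.02 on slide 5. The probe was marked on 15 of 18 arrays and lists further predicted transcripts.

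Hadha, the partner subunit with the hydratase and long-chain dehydrogenase activities, had no marked spot and differed by 0.27 ± 0.12 (adjusted p = 0.416). The linseed values of Hadha ran from 1.25 to 2.21 (median 1.72) and the palm values from 1.07 to 1.74 (median 1.42), so the groups overlapped. Its 95% confidence interval, 0.02 to 0.52, included the Hadhb difference. The genes of both subunits start from opposite strands of chromosome 5, with 272 bases between their starts in RefSeq (GRCm38.p6). The 250 bases before the Hadhb start, on its strand, end 22 bases short of the Hadha start, at chr5:30155003-30155252, and hold 17 CpG dinucleotides and 58.8% GC. They are shown as the sequence that the pair shares.
Hadhb: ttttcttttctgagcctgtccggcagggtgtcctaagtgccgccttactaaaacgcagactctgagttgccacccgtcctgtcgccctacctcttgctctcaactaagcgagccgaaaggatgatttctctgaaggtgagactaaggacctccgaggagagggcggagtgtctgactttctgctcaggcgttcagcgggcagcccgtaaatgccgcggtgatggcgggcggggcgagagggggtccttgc

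Hadh, the dehydrogenase of short and medium chains, ran from 4.79 to 5.26 (median 4.90) on linseed oil and from 4.38 to 4.90 (median 4.63) on palm oil. Of the palm values, 9 lay below the lowest linseed value. It was 1.25-fold higher (0.33 ± 0.08, adjusted p = 0.049) and above 0 within all 5 slides (0.24 to 0.67), but with slide as a fixed block it did not pass (0.34, adjusted p = 0.063; 0.026 to 0.552 over the other settings). Echs1, the short-chain hydratase, differed by 0.08 ± 0.07 with no marked spot (95% confidence interval -0.08 to 0.23). Acaa2, the thiolase of the matrix, differed by 0.22 ± 0.08 (adjusted p = 0.290), and by 0.10 with quantile scaling. At least 1 of the 10 spots of Acaa2 was saturated on 6 linseed and 6 palm arrays, with at most 4 saturated spots on an array.

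**Figure D3:**
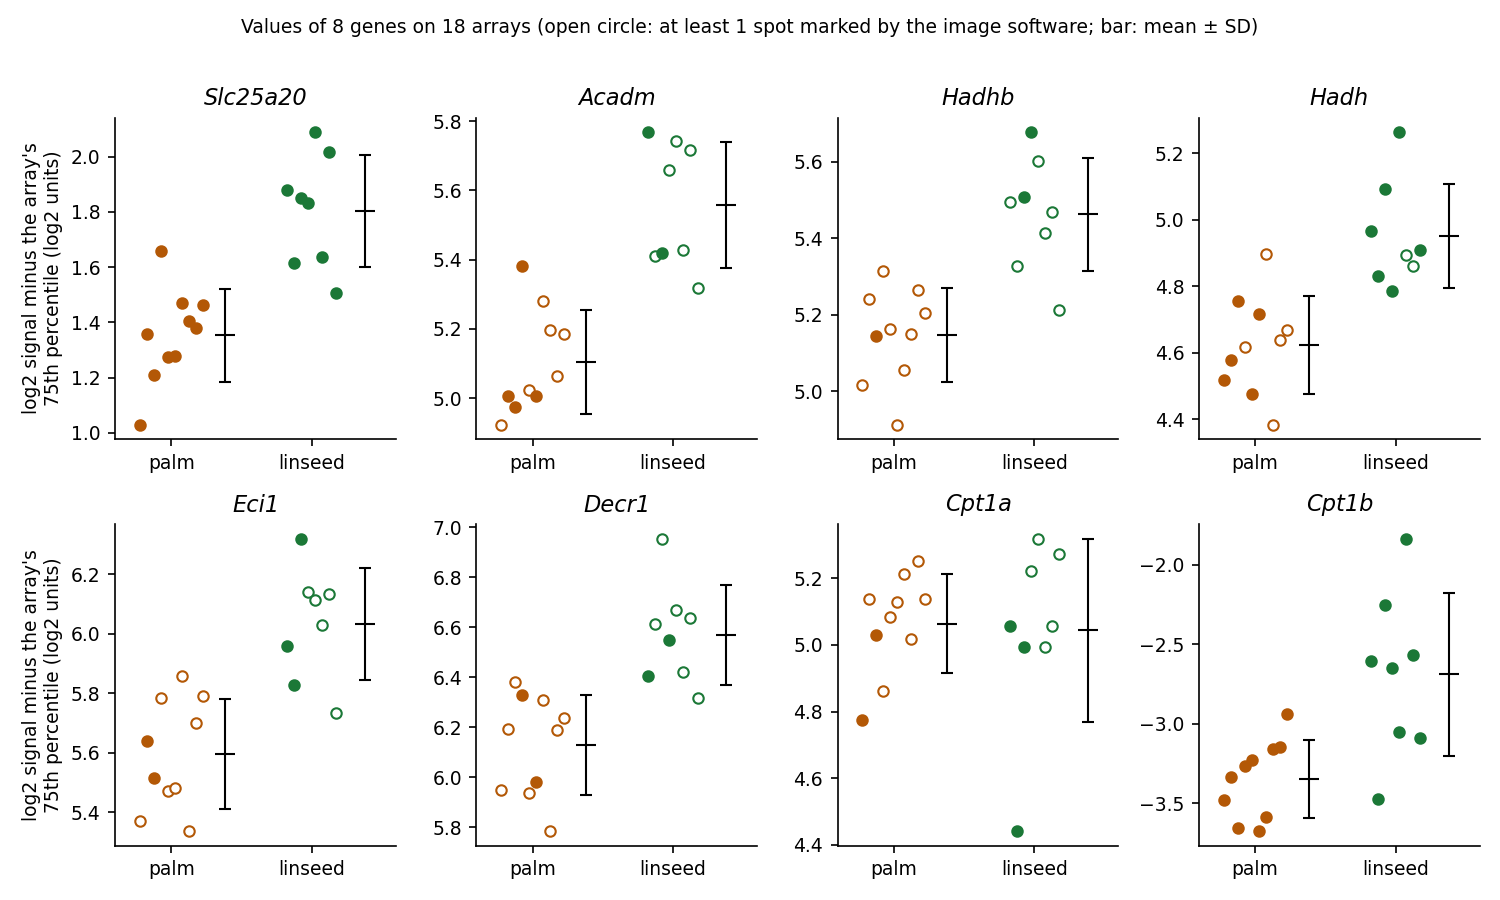
Values of 8 genes on each of 18 arrays (log2 signal minus the array's 75th percentile, vertical axes differ) for 10 palm and 8 linseed arrays; open circles have at least 1 marked spot, and bars are the mean ± SD. In Acadm, Hadhb and Decr1, 7 of the 8 linseed points exceed every palm point; in Cpt1a the palm points lie inside the range of the linseed points, whose lowest is 4.44.

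The enzymes for double bonds held 2 called genes of 3. Eci1, the isomerase that moves a double bond from the third to the second position, ran from 5.74 to 6.32 (median 6.07) on linseed oil and from 5.34 to 5.86 (median 5.58) on palm oil, with 6 of 8 linseed values above every palm value. It was 1.35-fold higher (0.44 ± 0.09, adjusted p = 0.026; 0.012 to 0.306 over the other settings). Within slides the difference was 0.39, 0.58, 0.64 and 0.48 on slides 1 to 4 and -0.01 on slide 5. With marks on 13 arrays, it was not testable with marked spots left out.

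Decr1, the 2,4-dienoyl-CoA reductase, ran from 6.32 to 6.95 (median 6.58) on linseed oil and from 5.78 to 6.38 (median 6.19) on palm oil. Of the 8 linseed values, 7 exceeded every palm value. It was 1.36-fold higher (0.44 ± 0.10, adjusted p = 0.035; 0.014 to 0.204 over the other settings) and above 0 within all 5 slides (0.10 to 0.71). The bright probe was marked on 14 arrays. The dimmer, unmarked probe gave 0.24 ± 0.11 (adjusted p = 0.459 with marked spots left out), so the call rests on the bright probe, and the mean of both probes gave 0.34 and did not pass. Eci2, a second isomerase found in mitochondria and peroxisomes, differed by 0.30 ± 0.09 (adjusted p = 0.123), and by 0.35 ± 0.09 with marked spots left out (adjusted p = 0.096; 0.045 to 0.766 over its alternatives, the lowest when slide was a random block). All 8 of its linseed values (6.30 to 6.82) lay above the palm median of 6.17.

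At the ketone body step, Acat1, the thiolase that joins or splits acetoacetyl-CoA, differed by 0.19 ± 0.10 (adjusted p = 0.530), and by 0.21 ± 0.11 with marked spots left out (adjusted p = 0.534). Bdh1, which reduces acetoacetate to beta-hydroxybutyrate, was read by 3 probes. Its brightest probe gave 0.33 ± 0.11 (adjusted p = 0.218; linseed 5.48 to 5.95, median 5.71; palm 4.75 to 5.71, median 5.46). With marked spots left out that probe gave 0.40 ± 0.12 (adjusted p = 0.199). Its second probe did separate the diets: all 8 linseed values (4.46 to 4.93) exceeded all 10 palm values (3.71 to 4.45), and the difference was 0.42 ± 0.09. When every probe was tested on its own that probe passed (adjusted p = 0.039), but not with marked spots left out (adjusted p = 0.098). The third probe gave 0.27 ± 0.11. On brightest probes, no member had every linseed value above every palm value, and 0.169% of all genes did.

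Propionate, left over from odd chains and some amino acids, enters the citric acid cycle through propionyl-CoA carboxylase and methylmalonyl-CoA mutase. These genes were near 0: Pcca, the alpha subunit of the carboxylase, at 0.02 ± 0.10, Pccb, the beta subunit, at 0.05 ± 0.11, and Mut, the mutase, at -0.03 ± 0.08. Their 95% confidence intervals reached 0.23, 0.28 and 0.14. For Mut, 1 of 8 linseed values lay above the palm median. Of 8 other propionate and cobalamin genes, Mmadhc, a cobalamin-handling protein, rose (0.30 ± 0.06, adjusted p = 0.014; 0.35 ± 0.07 and 0.049 with marked spots left out), and 3 were higher at an unadjusted p under 0.05.

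Within slides the members' differences were not even. The median of the 32 was 0.17, 0.26, 0.47 and 0.27 on slides 1 to 4, with 25, 28, 29 and 30 of 32 above 0, against 46% to 55.9% of all genes. On slide 5, with 1 linseed and 2 palm arrays, the median was -0.02 and 15 of 32 were above 0, as were 47.1% of all genes. Within each of the 5 slides, 10 of 32 (31.2%) were higher on linseed oil, beside 7.13% of all genes: Slc22a5, Slc25a20, Crat, Acadl, Acadm, Acad11, Etfa, Hadh, Decr1 and Bdh1. The mean over the 32 genes, relative to the palm mean, was 0.12 to 0.39 on the linseed arrays and -0.12 to 0.10 on the palm arrays. The lowest linseed array was replicate 8 and the highest palm array was replicate 10, both of slide 5. The groups did not overlap with this scaling, whereas with each array scaled by its median 7 of 8 linseed arrays lay above the highest palm array.

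**Figure D4:**
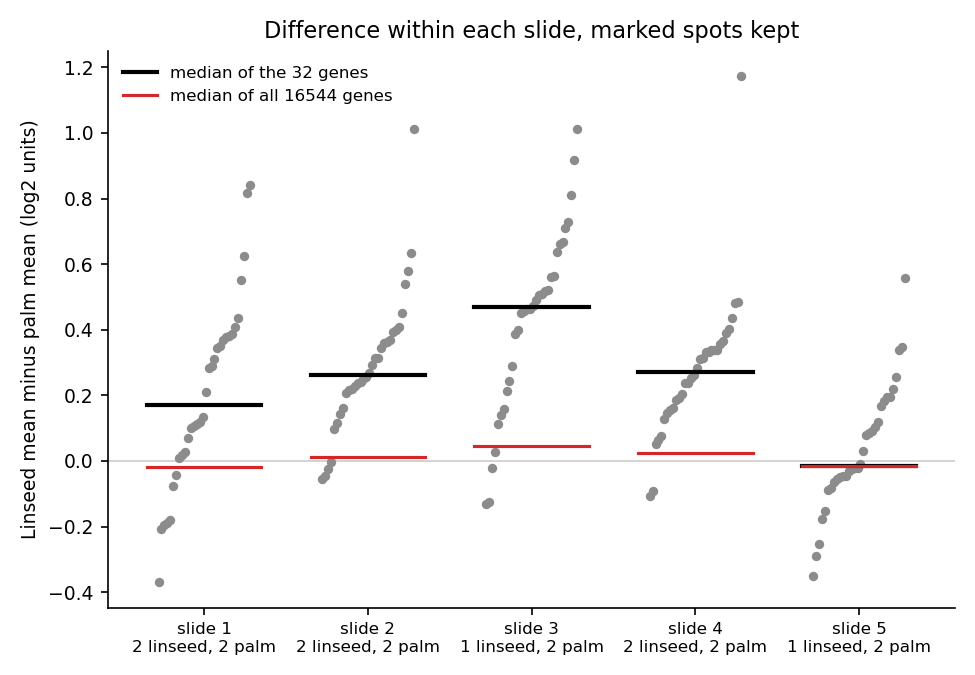
Linseed mean minus palm mean (log2 units, vertical axis) of the 32 genes within each of the 5 slides, with marked spots kept; each grey point is 1 gene, sorted within a slide, the black line is their median and the red line the median of all 16544 genes. The black line lies at 0.17 to 0.47 on slides 1 to 4 and at -0.02 on slide 5.

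Related gene lists gave a frame for these counts, with marked spots kept. Peroxisomal beta-oxidation shortens very long chains outside mitochondria. Of 23 genes listed for it, which include acyl-CoA thioesterases such as Acot3 and Acot4, 7 were called higher and none lower. The median difference of the 23 was 0.30. With marked spots left out 6 of 15 were called higher, with a median of 0.49. Examples were Acot3, an acyl-CoA thioesterase, at 1.91 ± 0.31 (adjusted p = 0.0046), Ehhadh, the bifunctional enzyme of the classical route, at 0.83 ± 0.14 (adjusted p = 0.0046), Acaa1b, a thiolase, at 0.67 ± 0.11 (adjusted p = 0.0056), Acot4, another thioesterase, at 0.75 ± 0.13 (adjusted p = 0.009), and Acot5 at 1.38 ± 0.29 (adjusted p = 0.029). None of 36 oxidative phosphorylation subunits was called; their median difference was 0.09, 34 of 36 were above 0, and 2 were higher at an unadjusted p under 0.05. None of 15 other activation and carnitine genes and none of 16 other mitochondrial dehydrogenases and helper enzymes was called by limma (4 and 1 higher at an unadjusted p under 0.05, none lower; medians 0.04 and 0.13). Of 14 regulators of fatty acid oxidation none was called and 2 were higher at an unadjusted p under 0.05: Ppara, at 0.15 ± 0.07 (adjusted p = 0.455; 0.29 ± 0.09 and 0.165 with marked spots left out), and Pdk4, the kinase that closes pyruvate dehydrogenase, at 0.76 ± 0.23 (adjusted p = 0.178). The 4 lists with no called gene had none by limma with marked spots left out either (2, 3, 1 and 2 genes higher at an unadjusted p under 0.05, in the order given). Differences between these lists were not tested.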

How the data were processed

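Arrays of 18 mouse livers (8 linseed, 10 palm oil) were grouped by sample title. Per the file headers, the authors' spot intensity values came from Agilent Feature Extraction 9.5.3.1 (9.5 in the submitters' processing notes, which also name limma). A table of log2 values that the authors deposited for 18060 probes was an alternative, and no source used here gives its scaling. Its rank correlation with the median spot signal was at least 0.99998 and its array medians were 7.85.

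Here log2 processed signals were centred on each array's 75th percentile over non-control probes, marked spots were kept or then left out, and spots of a probe were averaged. Probes well above background on at least 8 arrays with at least 6 values per diet were kept, and the brightest stood for a gene. The test was limma's moderated one, two-sided and with no covariate (lmFit and eBayes of version 3.58.1, under R 4.3.3). The number of arrays limits the precision. The procedure was tested on simulated independent normal values without slide effects, for genes drawn from all those tested. It called 84% (marks left out) and 88% (kept) of genes raised by 1 log2 unit, and 47% and 54% of those lowered by 0.5.

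Slides were taken from array barcodes. Whether replicate numbers pair the arrays was not settled: same-numbered arrays correlated at -0.22 to 0.47, over 0.1 in 5 of 8 pairs. Most same-numbered arrays also shared a slide, so these correlations cannot tell number from slide. Alternatives were slide and replicate blocks, other background correction, scaling, filter and probe rules, the authors' table, leaving out each array, and, chosen after seeing the data, every probe on its own and leaving out slides 4 and 5. The members, the gene lists and the tests were chosen with earlier results of these data known. All members are named, and of every other list up to 5 called genes by adjusted p (the list of other ketone body genes is not reported here); Ppara, Pdk4 and the marker genes fall outside that rule and were named after their values were seen. Symbols follow RefSeq (GRCm38.p6), except that Mut, now Mmut there, keeps the files' name, and probe positions mm9, per the file headers. Promoter sequences are from RefSeq, and windows were used for 26 of 32 members.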

Additional observations from a re-analysis of the deposited data

Results flagged for a closer look

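Among 64 groups of values (32 genes in each diet), 3 had a value far from the others, where chance marks about 1 group in 20. Cpt1a was at 4.44 on linseed replicate 2, against 4.99 on the nearest linseed array. Etfa was at 5.55 on palm replicate 2, a marked spot, against 5.76 on the nearest palm array. Bdh1 was at 4.75 on palm replicate 8, an unmarked spot, against 5.23 on the nearest palm array.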

How the results depend on the processing

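The median difference of the members was above 0 in every setting run: 0.19 to 0.28 with marked spots left out and 0.21 to 0.30 with marked spots kept. Of the 32 genes, 26 were above 0 in every setting with marked spots kept, and no called member changed sign. Counts of called genes moved more; in order, the counts are for all genes with marked spots left out (121) and kept (149) and for members left out (1) and kept (6). Slide as a random block gave 200, 253, 2 and 7, and as a fixed block 131, 186, 1 and 5. Numbered replicates as a block gave 18, 26, 0 and 1, with Decr1 the called member, and the median difference was 0.25 and 0.27. Whether the numbers pair the arrays was not settled, and 2 of 8 linseed arrays correlated best with their own number. Normexp background gave 68, 83, 1 and 2, no filter on dim probes 44, 51, 0 and 1, and the percentile over unmarked spots 42, 46, 0 and 0. With marked spots kept, 3 members were called after median scaling, and also 3 on the authors' values. Without slides 4 and 5, 19, 21, 0 and 0 were called. Leaving out 1 array at a time gave 51 to 142 and 74 to 169 genes and 0 to 2 and 2 to 5 members; with marked spots left out, the 2 were Slc25a20 and Cpt1b, without linseed replicate 2. The cause of these changes was not tested. Of simulated differences of 0.5 log2 units, in genes drawn from all those tested, 54% were called with marked spots kept. Differences of 0.2 to 0.3 were not simulated, and the spread of the members may differ from that of all genes. How often a member at 0.2 to 0.3 would be missed with this number of arrays was therefore not estimated.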
